A study of Mus musculus with 2 samples.

Results

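Rab proteins are small GTPases that mark the membranes a cell moves between compartments. Bound to GTP and held in a membrane by lipid tails, each recruits its own effectors, such as tethers and motor adaptors. Exchange factors load the GTP, GTPase-activating proteins end the signal, and a chaperone protein takes the spent form back to the cytosol. In macrophages and monocytes this cycle serves phagosome maturation, recycling of surface receptors, lysosome function and granule release.

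The Rab genes described here are all genes whose array name is Rab followed by a number and at most a letter and a further digit. This gave 58 genes with 82 probes among the 27237 named genes of the array, so regulators such as Rab3il1 are not among them. They were compared between 2 pools of sorted mouse cells on 2 two-colour Agilent arrays. The colon pool held CX3CR1high CD11b+ CD11c+ cells of the large intestinal lamina propria from CX3CR1gfp/+ mice, whose gfp allele replaces a copy of the fractalkine receptor gene. The blood pool held Ly6c+ CD11b+ monocytes of C57BL/6J mice. Neither ages nor treatments are given in the labels, and the design text gives n as 10 (colon) and 6 (blood) without saying what was counted. Array 1 carried the colon pool in Cy5 and the blood pool in Cy3, and array 2 the reverse. Both arrays measured the same pools and count as 1 replicate. There is therefore no test and no p-value, and errors are SDs between the arrays, which cover technical spread alone.

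Genes count as measured if at least 1 pool was, by the scanner's flag, well above background on array 1 and again on array 2. This held for 15692 genes and 53 of the 58 Rab genes. In 46 of the 53, both pools were well above background. Rab17, Rab25, Rab26, Rab39b and Rab42 were not measured. A gene is called higher or lower when the colon pool differed from the blood pool by at least 2-fold on each array. The probe of highest mean intensity stands for a gene with several. Each ratio below is the log2 ratio of colon over blood, so 1 is a doubling, and each level is a normalized log2 intensity, which can be set against another level of the same probe but not of another gene.

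The sort genes and lineage markers were read first. Itgax, Adgre1, Mertk, C1qa, C1qb and H2-Aa were higher in the colon pool, and the monocyte markers Ly6c1, Ccr2, Plac8 and Chil3 were lower. Cx3cr1 (0.10 ± 0.25), Itgam (-0.46 ± 0.33), Csf1r (0.95 ± 0.34) and Cd68 (0.80 ± 0.01) were not called. Markers of other cells moved with the pools as well. Of 8 fibroblast and smooth muscle markers 7 were higher in the colon pool, where their summed linear signal was 111134 and 119776 on the 2 arrays, against 1741 and 1728 in the blood pool. Of 12 epithelial markers 10 were higher, with sums of 8046 and 7003 against 1206 and 991, although Epcam (0.42 ± 0.37) and Cdh1 (0.47 ± 0.10) were not called. The B and plasma cell list (5 of 6 higher) and the T and NK cell list (7 of 10) moved the same way. Of 6 platelet markers 4 were lower in the colon pool, where Gp9 was not above background, and Pf4 was higher (5.53 ± 0.30). Among endothelial markers 2 of 6 were higher, among mast cell markers 3 of 5 measured, with Fcer1a and Ms4a2 below background in both pools, and among dendritic cell markers Ccr7 was higher and Flt3 lower, with Xcr1 below background. The part of such cells in any Rab value below was not tested, and in pooled RNA fewer cells of a type and less RNA per cell cannot be told apart. Tissue, mouse strain and isolation differed together with the cell type and cannot be told apart either.

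As a family the Rab genes lay close to the rest of the array, while a few members stood far from it. Of the 53 measured Rab genes 8 were higher (15.1%), beside 14.2% of all measured genes, and 4 were lower (7.55%), beside 4.45%. In both directions 12 of 53 were called, beside 18.6% of all measured genes, and the shares are near that background. Of the 46 with both pools well above background 7 were higher, beside 12.9% of such genes, and 4 were lower, beside 5.05%. The median ratio was 0.05, against 0.06 for all measured genes, and the median size of the ratio was 0.47 against 0.42. Both arrays gave the same sign for 46 of the 53. Of the calls 66.7% were higher, against 52.9% with the scanner software's own ratios, where the Rab median was -0.11 and that of all measured genes -0.12. With arrays centred on their medians in place of loess these medians were -0.54 and -0.28, and Rab6b, Rab12, Rab13, Rab2b and Rab32 lost their calls, each on 1 array. The genes higher in the colon pool were Rab34, Rab20, Rab6b, Rab4a, Rab12, Rab15, Rab13 and Rab2b, and the lower ones were Rab27a, Rab7l1 (current symbol Rab29), Rab19 and Rab32.

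**Figure D1:**
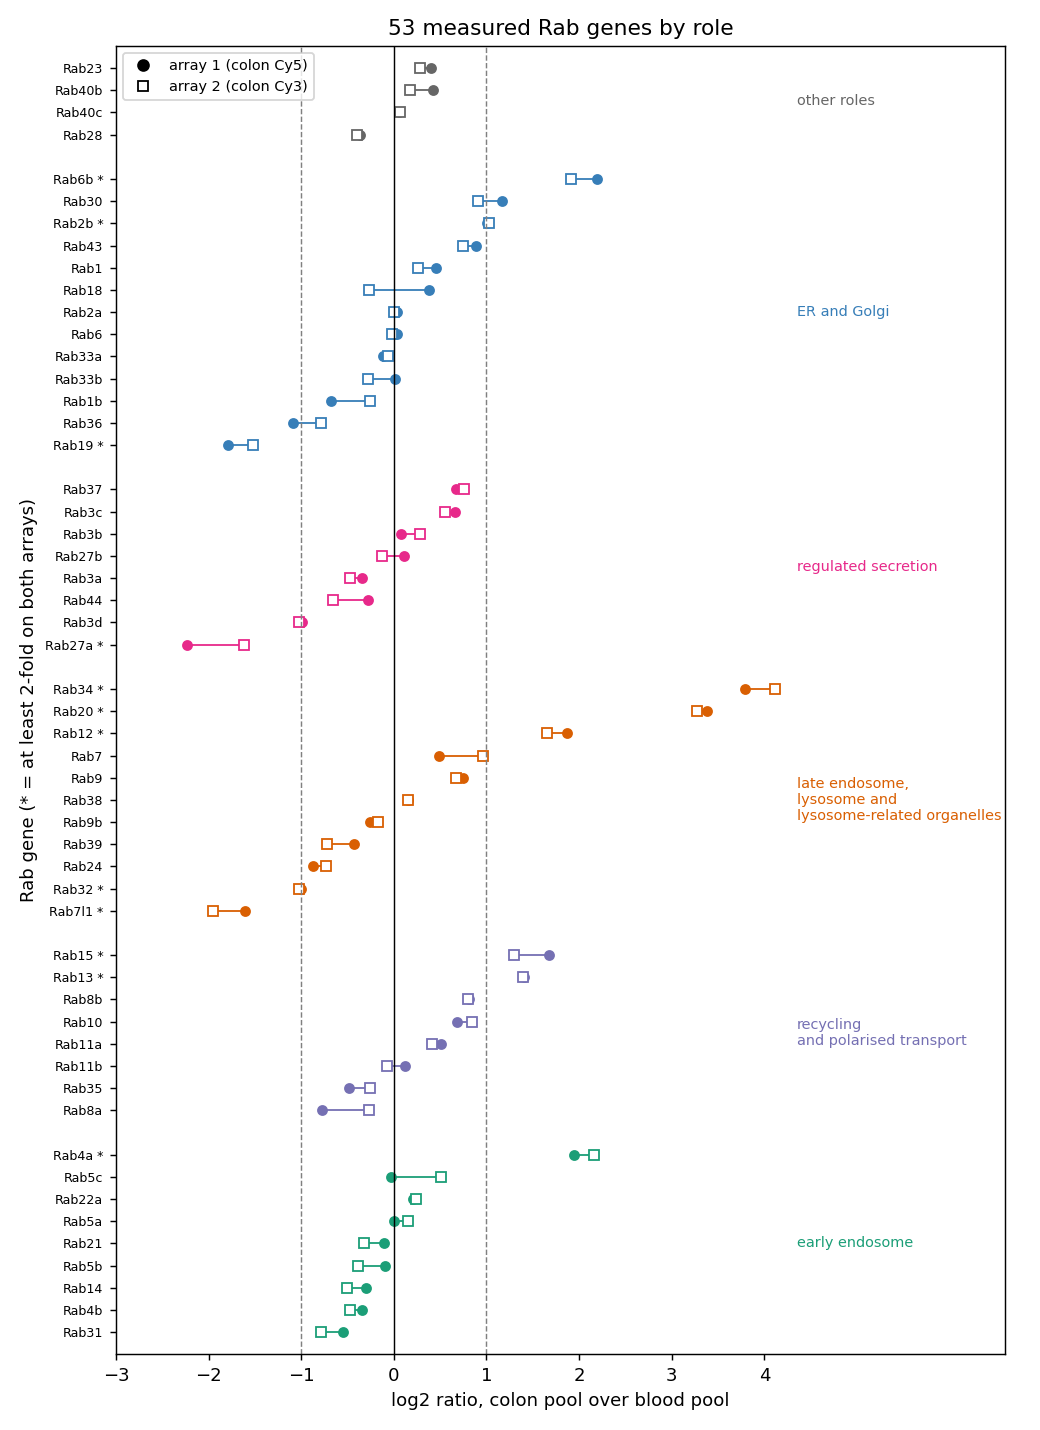
Log2 ratios of colon over blood (horizontal axis) for the 53 measured Rab genes, grouped by role; filled circles are array 1 and open squares array 2, joined by a line, dashed lines mark 2-fold, and asterisks mark the 12 genes called. Rab34 and Rab20 sit far to the right of the rest, and Rab27a, Rab7l1 and Rab19 are the farthest to the left.

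The largest differences lay among the Rab genes of late endosomes, lysosomes and lysosome-related organelles. Of 13 such genes 11 were measured, 3 were higher (beside 14.2% of all measured genes) and 2 were lower (beside 4.45%). Rab34, which acts in macropinocytosis, lysosome positioning and cilium formation, read 10.97 and 10.94 in the colon pool on arrays 1 and 2, and 7.18 and 6.82 in the blood pool. The ratio of 3.96 ± 0.23 (15.5-fold) was the highest of the family in this processing. With the scanner software's ratios Rab15 (4.88) lay above Rab34 (4.49). The Rab34 probe lies on chromosome 11, 78005615 to 78005674 (build mm9). Rab20, which takes part in the maturation of endosomes and phagosomes, read 11.61 and 11.53 in the colon pool and 8.23 and 8.26 in the blood pool, at a probe on chromosome 8, 11454183 to 11454242. Its ratio was 3.33 ± 0.08 (10.0-fold), and like Rab34 it held its call with median centring and with the scanner software's ratios. Rab12, which carries recycling receptors toward lysosomal breakdown, read 11.67 and 11.57 against 9.81 and 9.92, a ratio of 1.76 ± 0.15 (3.39-fold). Its call was lost when arrays were centred on their medians, where array 2 read 0.03.

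The lower genes of these compartments belong to 1 subfamily. Rab7l1, a partner of the kinase LRRK2 at the Golgi and on lysosomes, read 10.68 and 10.46 in the colon pool and 12.29 and 12.41 in the blood pool. The ratio was -1.78 ± 0.25 (3.43-fold lower), and its second probe read -1.57. Rab32, which supplies lysosome-related organelles and phagosomes, read 11.17 and 11.13 against 12.17 and 12.15, a ratio of -1.01 ± 0.01 that lies just past the 2-fold limit. Rab38, the partner of Rab32 in melanosome formation, read 7.70 and 7.68 against 7.55 and 7.53, and its ratio of 0.15 ± 0.00 was not called. Rab7l1 and Rab32 were thus lower on both arrays, while the pools lay close together for Rab38. The other measured genes of the group ran from -0.80 to 0.72. Among them were Rab7, the main Rab of late endosomes (0.72 ± 0.34), Rab9, which returns receptors from late endosomes to the Golgi (0.71 ± 0.06), and Rab24, known from autophagy (-0.80 ± 0.10).

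The sequence before the transcription start is shown for the 2 highest genes of the late endosome and lysosome group and for its 2 lower genes. Rab12, also higher in this group, is not shown. Each window is the 250 bases upstream of a RefSeq start (build GRCm38.p6), 5′ to 3′ on the gene's strand. Capitals mark matches, on either strand, to 4 short motifs that do not overlap each other here, the E-box CACGTG of MITF and TFE factors, the AP-1 motif TGANTCA, the PU.1 core GAGGAAG and the GC box GGGCGG. The windows are chr11:78188177-78188426 (+) and chr11:78188498-78188747 (+) for the 2 starts of Rab34, chr8:11478641-11478890 (-) for Rab20, chr10:10558208-10558457 (-) for Rab32 and chr1:131867027-131867276 (+) for Rab7l1.
Rab34, first start: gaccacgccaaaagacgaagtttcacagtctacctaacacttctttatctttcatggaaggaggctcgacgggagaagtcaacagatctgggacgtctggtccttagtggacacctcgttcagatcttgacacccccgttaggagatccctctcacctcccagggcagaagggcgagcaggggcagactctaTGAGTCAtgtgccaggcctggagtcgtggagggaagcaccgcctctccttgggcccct
Rab34, second start: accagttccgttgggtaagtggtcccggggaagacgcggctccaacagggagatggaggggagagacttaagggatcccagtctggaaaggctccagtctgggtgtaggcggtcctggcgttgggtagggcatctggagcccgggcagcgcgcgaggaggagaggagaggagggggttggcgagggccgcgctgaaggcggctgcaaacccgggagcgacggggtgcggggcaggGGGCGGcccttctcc
Rab20: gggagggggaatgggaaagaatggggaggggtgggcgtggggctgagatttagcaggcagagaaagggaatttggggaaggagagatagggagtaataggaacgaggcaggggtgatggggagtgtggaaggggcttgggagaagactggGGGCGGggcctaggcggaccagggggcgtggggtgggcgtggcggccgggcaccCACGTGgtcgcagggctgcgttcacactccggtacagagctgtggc
Rab32: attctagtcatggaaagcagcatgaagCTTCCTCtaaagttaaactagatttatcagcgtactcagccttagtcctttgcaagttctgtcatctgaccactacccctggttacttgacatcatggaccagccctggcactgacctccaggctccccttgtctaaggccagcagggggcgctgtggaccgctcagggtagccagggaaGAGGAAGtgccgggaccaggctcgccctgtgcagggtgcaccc
Rab7l1: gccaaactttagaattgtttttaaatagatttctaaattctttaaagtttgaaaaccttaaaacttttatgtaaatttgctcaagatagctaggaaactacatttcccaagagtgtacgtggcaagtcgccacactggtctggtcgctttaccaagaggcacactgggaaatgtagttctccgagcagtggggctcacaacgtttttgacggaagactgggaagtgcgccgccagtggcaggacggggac

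The first Rab34 window holds an AP-1 match 58 bases before the start and the second a GC box. The Rab20 window holds an E-box 46 bases and a GC box 100 bases before the start. Rab32 has PU.1 core matches at 223 and 43 bases before its start, and the Rab7l1 window has none of these letters. The same motifs occur before other called genes. PU.1 matches are also in windows of Rab12 and Rab2b, both higher, and an AP-1 match is in a window of Rab15, also higher. An E-box is also in a window of Rab27a, which was lower. Windows were found for 48 of the 58 Rab genes, 60 windows in all, since several genes have more than 1 start. The E-box was in 5 of the 60 (8.33%), beside 6.02% of the 32851 windows of all genes. AP-1 matches were in 3.33% beside 6.75%, and PU.1 matches in 8.33% beside 10.6%. The GC box, common in broadly expressed genes, was in 66.7% of the Rab windows and 32.7% of all windows. These matches describe the letters and do not show binding.

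Among 8 measured genes of regulated secretion 0 were higher (beside 14.2% of all measured genes) and 1 was lower (beside 4.45%). Rab27a, which docks secretory lysosomes and granules at the plasma membrane, read 6.68 and 7.24 in the colon pool and 8.91 and 8.86 in the blood pool. The ratio was -1.93 ± 0.43 (3.81-fold lower), the lowest of the family in this processing, from a probe on chromosome 9, 72944668 to 72944727. It was -3.35 with the scanner software's ratios, next to Rab36 at -3.30, and -2.31 with median centring, where Rab7l1 was lower at -2.48. For Rab27a the colon level differed more between the arrays than the blood level did. Its close relative Rab27b, known from platelets and mast cells, read 6.55 and 6.66 against 6.44 and 6.79 and was not called (-0.01 ± 0.16). Rab3d, found on secretory granules, read 9.33 and 9.33 against 10.33 and 10.36, and missed the rule with -0.996 on array 1 and -1.03 on array 2. At this brighter probe Rab3d stands just outside the limit as Rab32 stands just inside it. A dimmer second probe read -0.63, and the mean over both probes was -0.82. Rab3a (-0.40 ± 0.09), Rab3b (0.18 ± 0.14) and Rab3c (0.61 ± 0.08), which act in regulated exocytosis and are known mainly from neurons, were not called, and neither were Rab37 (0.71 ± 0.06) and Rab44 (-0.47 ± 0.27). Of 7 measured neutrophil markers S100a8, S100a9 and Mmp8 were lower in the colon pool, as Rab27a was, while Elane (0.47 ± 0.13), Ltf (0.00 ± 0.09), Camp (-0.33 ± 0.02) and Mpo (-0.27 ± 0.07) were not called. Their part in the Rab27a value was not tested.

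**Figure D2:**
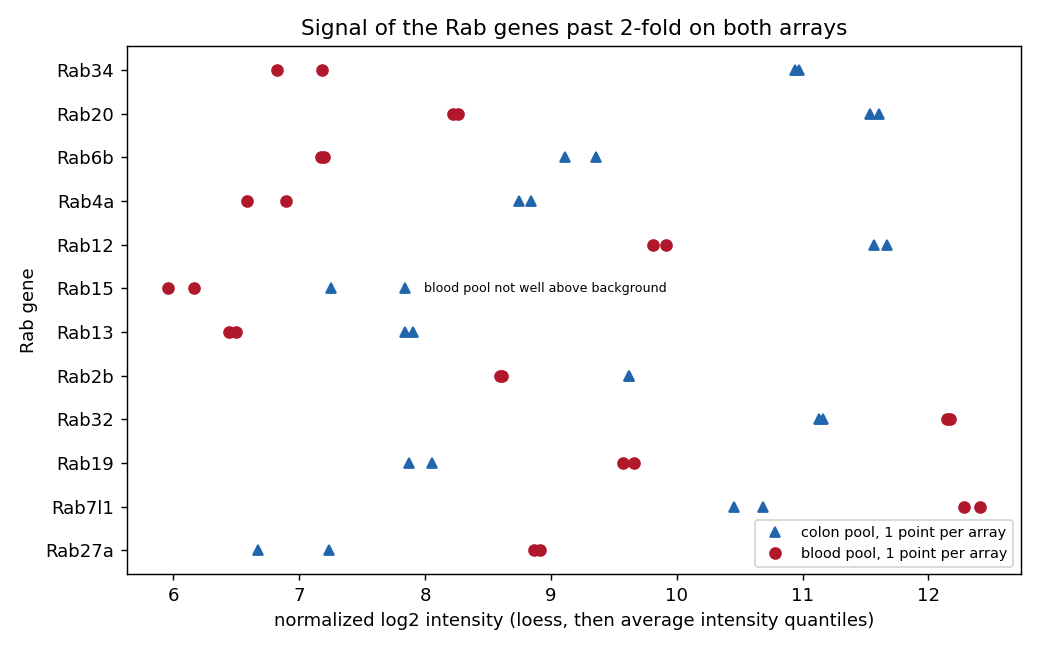
Normalized log2 intensity (horizontal axis) of the 12 called Rab genes in the colon pool (triangles) and the blood pool (circles), with 1 point per array. The genes were chosen for a 2-fold difference on each array, so the separation of the pools follows largely from that choice. For Rab15 the blood pool was not well above background.

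At early endosomes 1 of 9 genes was higher (beside 14.2% of all measured genes) and the rest stayed within 2-fold. Rab4a, which drives fast recycling to the surface, read 8.84 and 8.75 in the colon pool and 6.90 and 6.59 in the blood pool, a ratio of 2.05 ± 0.15 (4.15-fold). A dimmer second probe read 0.92, the largest gap between measured probes of a Rab gene, and the mean over both probes was 1.49. Rab4b, which shares the recycling role, read 9.57 and 9.61 against 9.91 and 10.08 and was not called (-0.41 ± 0.09). The 3 forms of Rab5, the organiser of early endosome fusion, lay at 0.08 ± 0.11 (Rab5a), -0.24 ± 0.21 (Rab5b) and 0.24 ± 0.39 (Rab5c). Rab22a (0.22 ± 0.02) and its relative Rab31 (-0.67 ± 0.17), which link endosomes and the Golgi, were on opposite sides of 0 without a call. Rab14 (-0.40 ± 0.15) and Rab21 (-0.22 ± 0.16) complete the group.

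Among 8 measured genes of recycling endosomes and polarised transport 2 were higher (beside 14.2% of all measured genes) and 0 lower (beside 4.45%). Rab13, known from tight junctions and surface delivery, read 7.90 and 7.84 in the colon pool and 6.50 and 6.45 in the blood pool (1.40 ± 0.01). Rab15, an endosomal Rab known mainly from neurons, read 7.84 and 7.25 against 6.17 and 5.95 (1.49 ± 0.26). The blood signal of this Rab15 probe was not well above background on either array, so the size of this ratio depends on how background was treated, and it was 4.88 with the scanner software's ratios. The second probe, not measured, read -0.21. Most of the epithelial and fibroblast markers given above were higher in the same pool as these and the other higher Rab genes. Their part in these values was not tested. Rab25 and Rab17, known from epithelium, were not measured, with Rab25 above background in the colon pool on 1 array alone. Rab8b (0.80 ± 0.00) and Rab8a (-0.52 ± 0.36), which deliver cargo to the cell surface, were on opposite sides of 0, and a second Rab8b probe read 1.21. Rab10 (0.76 ± 0.11), Rab11a (0.46 ± 0.07), Rab11b (0.02 ± 0.14) and Rab35 (-0.37 ± 0.16) were not called.

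All 13 Rab genes of the endoplasmic reticulum and Golgi were measured. Of these 2 were higher (beside 14.2% of all measured genes) and 1 was lower (beside 4.45%). Rab6b, a Golgi Rab described chiefly in neurons, read 9.36 and 9.11 in the colon pool and 7.17 and 7.20 in the blood pool (2.05 ± 0.19, 4.15-fold). Rab6, the widely expressed Rab6a, read 11.51 and 11.59 against 11.48 and 11.60, so that both pools were nearly level (0.01 ± 0.03). None of 4 measured neuron and glia markers was called. Rab2b read 9.62 on both arrays in the colon pool against 8.61 and 8.59, a ratio of 1.02 ± 0.01 just inside the limit, and fell to 0.47 with median centring. Its relative Rab2a, which like it acts between the endoplasmic reticulum and the Golgi, was at 0.01 ± 0.02. Rab19, another Golgi Rab, was lower, with 7.87 and 8.05 against 9.66 and 9.57 (-1.65 ± 0.19, 3.15-fold lower). At both Rab30 probes the blood signal was not well above background. At the brighter probe the mean colon level was at least 2.06-fold higher. This limit was taken against that probe's own blood signal, which on each array exceeded the lowest signal flagged as above background. Of all measured genes 2.5% reached such a limit of 2-fold in this direction. The second Rab30 probe, above background in the colon pool on array 1 alone, was not measured and read 0.19. Rab30 (1.17 and 0.91) and Rab36 (-1.09 and -0.79) passed the size on array 1 alone. The other 6 genes ran from -0.47 for Rab1b to 0.82 for Rab43.

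The 4 genes with other roles, Rab23, Rab28, Rab40b and Rab40c, lay between -0.38 and 0.34. Rab40b and Rab40c are parts of ubiquitin ligases, and Rab23 acts in hedgehog signalling.

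Close relatives took different values in some subfamilies. Of 14 subfamilies with at least 2 measured genes, 5 held a called gene, where 18.6% of all single measured genes were called. In 7 the ratios of the members were more than 1 log2 unit apart. Groups of unrelated genes were not counted in this way, so these counts do not set the subfamilies apart from other genes. The spread was widest between Rab4a and Rab4b at 2.46 (2.28 on array 1 and 2.63 on array 2), then between Rab6b and Rab6 at 2.05, Rab38 and Rab7l1 at 1.93, and Rab27b and Rab27a at 1.92. With the dimmer Rab4a probe the Rab4 pair would be closer. These gaps compare ratios and not levels. In the subfamily of Rab32 alone were 2 genes called, in the same direction. Probes of a gene mostly went together, since 13 of the 14 Rab genes with several measured probes had 1 sign throughout, with a median difference of 0.20 between the highest and lowest probe.

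**Figure D3:**
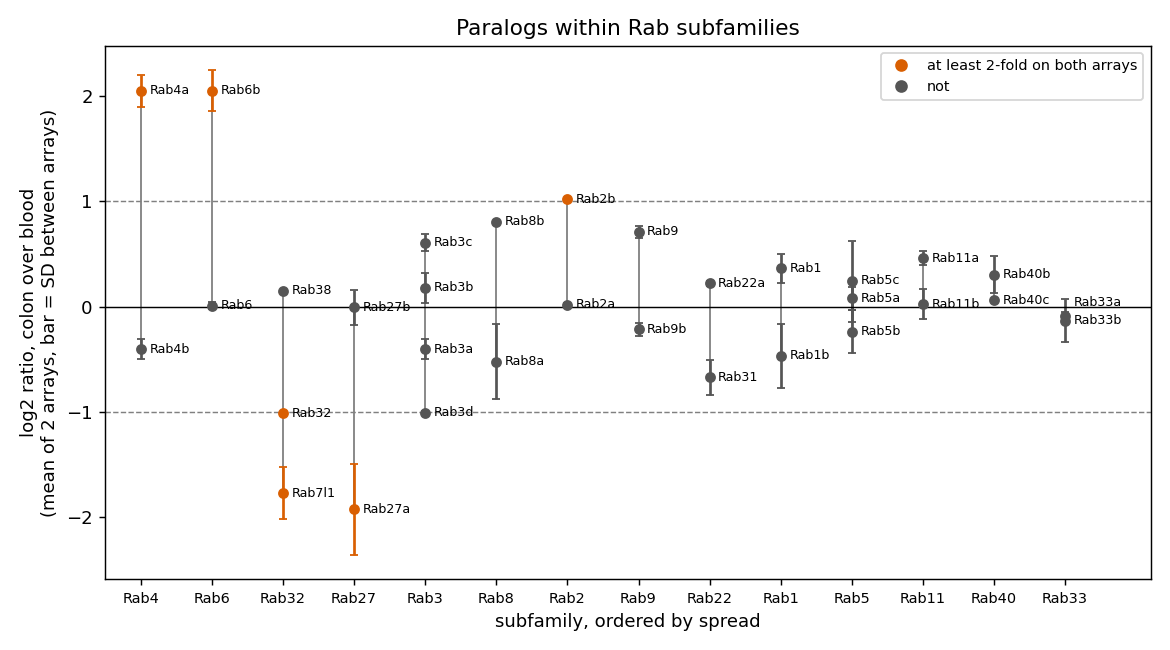
Mean log2 ratio of colon over blood (vertical axis) for measured members of 14 Rab subfamilies, ordered by the spread between members; bars are SDs between the 2 arrays and orange points are called genes. Rab4a, Rab6b and Rab27a lie about 2 log2 units from a level relative, and both called genes of the Rab32 subfamily are below 0.

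The genes that load, switch off and read the Rab proteins were read from a list of 124 genes. Of these 115 were measured, 17 higher, beside 14.2% of all measured genes, and 7 lower, beside 4.45%, and the median ratio was 0.10. With the scanner software's ratios 18 were higher and 18 lower, where 3181 and 2083 of all 15692 measured genes were higher and lower. None of the 8 genes for lipid attachment and membrane cycling was called. Gdi2, which extracts spent Rab proteins from membranes, came nearest at 1.02 ± 0.07, with 0.97 on array 1.

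Exchange factors were higher for 4 and lower for 1 of 33 measured (beside 14.2% and 4.45% of all measured genes). Rab3il1, an exchange factor that binds Rab3a and activates Rab8, read 12.75 and 12.88 in the colon pool and 9.23 and 9.14 in the blood pool (3.63 ± 0.16). Its ratio was above those of all regulators measured and close to that of Rab20. Rabgef1 (1.96 ± 0.11) and Rin2 (1.14 ± 0.15), which activate Rab5, and Sbf2 (1.70 ± 0.09) were also higher, and Dennd2d was lower (-1.09 ± 0.05). For the Rab5 genes themselves the pools were within 0.24 log2 units of each other in the mean. Both subunits of the exchange factor of Rab32 and Rab38 stayed uncalled on opposite sides of 0, with Hps1 at -0.60 ± 0.05 and Hps4 at 0.94 ± 0.07. Mon1a (-0.81 ± 0.14), Mon1b (-0.48 ± 0.17) and Ccz1 (-0.62 ± 0.09), which activate Rab7, were below 0 without a call.

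GTPase-activating proteins went both ways, with 4 of 34 higher (beside 14.2%) and 4 lower (beside 4.45%). Tbc1d4, a substrate of AKT that acts on Rab10 and its relatives, was the highest at 3.04 ± 0.10, from 10.36 and 10.17 against 7.25 and 7.21. Tbc1d16, described to act on Rab4a, was at 2.48 ± 0.19, and Tbc1d10a, which acts on Rab27a and Rab35, at 2.12 ± 0.09, with Sgsm2 at 1.25 ± 0.05. The lowest was Tbc1d2, which acts on Rab7, at -2.04 ± 0.17, followed by Tbc1d13 (-1.19 ± 0.12), Rabgap1l (-1.14 ± 0.17) and Tbc1d10b (-1.13 ± 0.03). Tbc1d16 was higher in the same pool as Rab4a. Tbc1d10a was higher in the pool where Rab27a was lower, while Tbc1d10b was lower there, as Rab27a was. Any link between these regulators and the Rab values was not tested.

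Effectors were higher for 9 of 40 (beside 14.2% of all measured genes) and lower for 2 (beside 4.45%). The highest were Sytl3, a tether that binds Rab27 (1.77 ± 0.19), Rab11fip5, an effector of Rab11 (1.69 ± 0.07), Rilpl2, which binds Rab8 and Rab10 (1.59 ± 0.02), and Osbpl1a, a sterol sensor that binds Rab7 (1.48 ± 0.01). Unc13d, the priming factor that works with Rab27a in granule release, was lower (-1.28 ± 0.18), as was Pik3c3, the lipid kinase of early endosomes and autophagy (-1.05 ± 0.07). Sytl3 and Unc13d, both partners of Rab27a, therefore moved in opposite directions. Of the other Sytl genes, Sytl1 (0.10 ± 0.14), Sytl2 (0.48 ± 0.06) and Sytl4 (-0.40 ± 0.08) were measured and not called. The Rab27a partners Mlph, Myrip, Sytl5 and Exph5 were not measured.

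**Figure D4:**
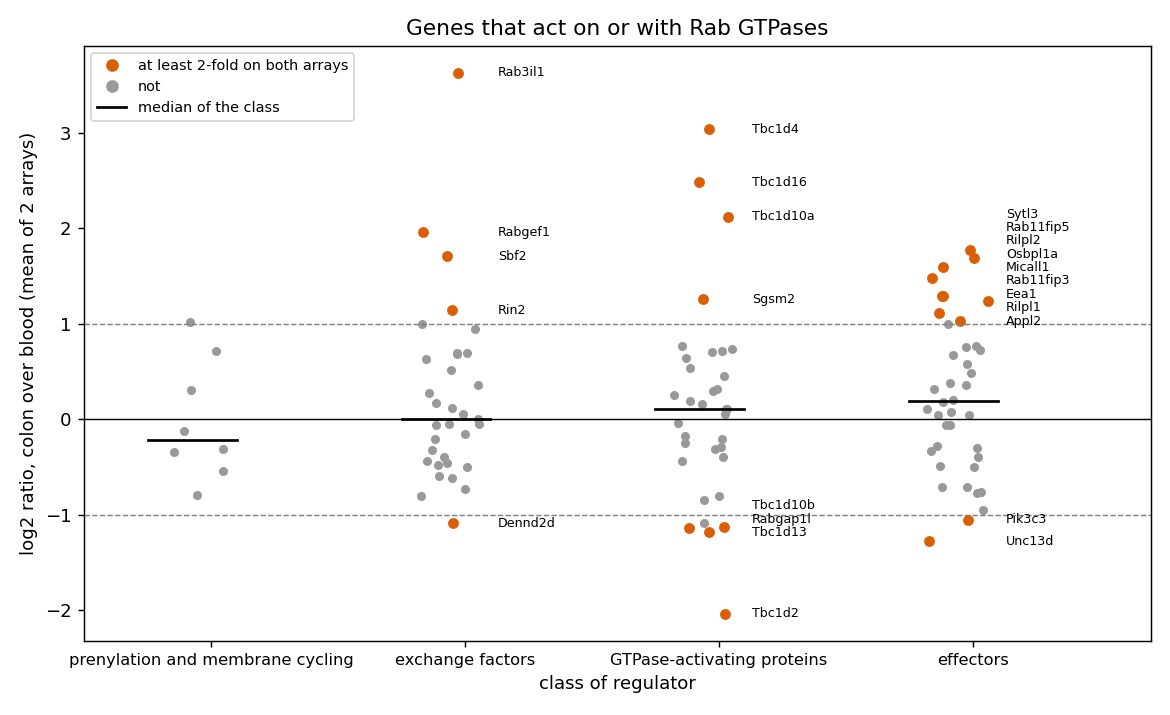
Mean log2 ratio of colon over blood (vertical axis) for 115 measured genes that act on or with Rab proteins, in 4 classes; orange points are called genes with their names, grey points are the rest, and black lines are class medians. Rab3il1, Tbc1d4 and Tbc1d16 are the highest points and Tbc1d2 the lowest, while the medians lie near 0.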

How the data were processed

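The deposited scanner files of both arrays give mean spot intensity and median background intensity in linear units, and a log10 ratio (red over green) that the scanner software computed after dye normalization, per the file headers. The authors' deposited value table holds the same log10 ratios, matched by spot number, already turned to colon over blood. The software was Agilent Feature Extraction, 10.5.1.1 per the submitters' processing notes, while the grid placement entry of the file headers gives 10.7.3.1. Per the labels' protocols, 25 ng of RNA of each pool was amplified from an oligo-dT primer, which ties signals to transcript 3′ ends.

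Here intensities of all 44397 spots were corrected with normexp (offset 50) and normalized by loess within arrays (limma 3.58.1, R 4.3.3), with control and outlier spots at weight 0. Log2 ratios of the 43020 non-control spots were kept, without outliers. Levels per pool were scaled further between arrays by quantiles of average intensity. This offset pulls the ratios of dim genes toward 0. Saturated spots numbered 0, and between 52.9% and 59.6% of spots were well above background. The number of arrays limits the precision. Spots of a probe were averaged, array 2 was turned, and the brightest measured probe gave a gene's value. Other genes were named through RefSeq accessions (GRCm38) or the file. The method was tested on simulated arrays.

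The Rab genes, the role, regulator and marker lists and the rule for named genes (every called Rab gene or bound of 2-fold, its subfamily, and up to 4 regulators per class and direction) were chosen with earlier results of these data known. Some uncalled Rab genes and regulators outside that rule are also given, chosen for their role after values were seen. Whether the arrays used 1 extract of each pool is not stated. They share 1 slide, so no batch could be tested. Protein sequences were not used here.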

Additional observations from a re-analysis of the deposited data

How the results depend on the processing

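Of the 12 called Rab genes, 12 kept their call without background correction, with an offset of 16 and with the mean over probes. Both background settings left the called ratios level or farther from 0, so they say little of the stability of a call. The mean over probes changes only genes with several measured probes. Single arrays, quantile scaling between arrays and no filter on dim probes cannot remove a call under this rule and show nothing of its stability. Requiring both pools above background took Rab15 out, which left 11. Median centring in place of loess moved the median of all measured genes from 0.06 to -0.28 and that of the Rab genes to -0.54. Under it 4 Rab genes were higher and 3 lower, 1138 of all measured genes were higher and 558 lower, and 4 regulators were higher and 3 lower. Rab6b, Rab12, Rab13, Rab2b and Rab32 lost their calls there, each with 1 array short of the size (0.85, 0.03, 0.83 and -0.34 on array 2 for the first 4, -0.72 on array 1 for Rab32), and none changed sign in the mean. With the scanner software's ratios, as with the deposited value table, Rab2b alone was lost and 6 Rab genes were added. This gave 9 higher and 8 lower (52.9% of calls higher, against 66.7%) and a Rab median of -0.11. Of all measured genes 3181 were higher and 2083 lower there, and of the regulators 18 and 18. On single arrays the Rab median ran from -0.00090 to 0.075. At 1.5-fold, 14 Rab genes were higher and 7 lower, with 3493 and 1725 of all genes and 28 and 18 regulators. At 4-fold, 2 Rab genes (Rab34 and Rab20) were higher and 0 lower, with 954 and 130 of all genes and 4 and 0 regulators. No paired analysis was possible because both arrays are taken to measure the same 2 pools. Signal over background limits the dim genes: Rab15 and Rab30 read 4.88 and 4.34 with the scanner software's ratios.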
